A study of Saccharomyces cerevisiae with 4 samples.

Results

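The B-type cyclins of budding yeast, the kinase they switch on and the proteins that hold that kinase in check were followed in *sis2Δ* and wild-type cells. The 10 genes were taken by systematic identifier from a table of 6692: the cyclins *CLB1*, *CLB2*, *CLB3*, *CLB4*, *CLB5* and *CLB6*, the kinase *CDC28*, its small subunit *CKS1*, and the inhibitors *SIC1* and *FAR1*. The rule uses no measured value, but it was set with earlier results of these data known. Wild type was BY4741 (genotype *MATa his3Δ1 leu2Δ0 met15Δ0 ura3Δ0*), a haploid laboratory strain of *Saccharomyces cerevisiae*, and the other strain was BY4741 with *sis2Δ::kanMX*, from the deletion collection, so both strains carry the same 4 auxotrophic alleles. Polyadenylated RNA was sequenced from 2 cultures per strain, replicates A and B, all in synthetic complete medium with 2% glucose at mid-log phase. The cultures were not synchronised, so a transcript that more cells hold at a given moment and a transcript that each cell holds more of cannot be told apart.

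Passage through the cell cycle in yeast is driven by the cyclin-dependent kinase Cdc28, which is active only when a cyclin is bound. Clb5 and Clb6 start DNA replication, Clb3 and Clb4 act in replication and in spindle assembly, and Clb1 and Clb2 drive mitosis. Sic1 blocks Clb-bound Cdc28 until its destruction lets S phase begin and returns at mitotic exit, whereas Far1 arrests cells in G1 when mating pheromone is sensed by acting on the Cln-bound kinase. Cks1 is a subunit of these complexes that helps the kinase phosphorylate its substrates at many sites.

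The depth of the libraries was between 19001619 and 28069619 counts. The targeted gene, *SIS2*, had 3991 and 2208 counts in wild-type replicates A and B and 6 and 9 counts in the *sis2Δ* replicates. Markers of *MATa* cells were present in every library, with the sum over 6 of them (*STE2*, *STE6*, *MFA1*, *MFA2*, *BAR1* and *AGA2*) at 1650 and 1730 CPM in wild type and 2270 and 2310 CPM in *sis2Δ*. CPM here are counts relative to library size, with libraries scaled to each other by TMM. Chi-square over its degrees of freedom between the replicates was 20.4 for wild type and 60.1 for *sis2Δ*, where counting noise alone gives about 1, over genes with at least 20 counts in the pair.

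Where transcription of these genes is periodic, it is controlled from DNA before their coding sequences. Stretches of it are shown for both inhibitors and for the mitotic and S-phase cyclins, with matches to motifs of cell-cycle regulators. Whether a protein binds at a match was not tested. The Mcm1 and forkhead proteins work together before the mitotic cyclin genes, MBF binds the MCB element of S-phase genes, and Swi5 acts on genes of the M/G1 boundary. Letters from the R64 genome (RefSeq) are given 5′ to 3′ on the strand of the gene, and positions count back from the start codon. In the stretches before *FAR1*, *CLB2*, *CLB1* and *CLB5*, capitals mark the Mcm1-type run (CC, any 6 bases, GG) and the forkhead-type run GTNAACA, read on either strand.
FAR1 chrX:126549-126768 (minus strand): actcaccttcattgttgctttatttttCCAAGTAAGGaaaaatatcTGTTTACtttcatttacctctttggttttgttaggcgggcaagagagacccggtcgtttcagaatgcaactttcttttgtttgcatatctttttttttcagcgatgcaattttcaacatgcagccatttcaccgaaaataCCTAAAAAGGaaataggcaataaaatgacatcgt
CLB2 chrXVI:770853-771002 (plus strand): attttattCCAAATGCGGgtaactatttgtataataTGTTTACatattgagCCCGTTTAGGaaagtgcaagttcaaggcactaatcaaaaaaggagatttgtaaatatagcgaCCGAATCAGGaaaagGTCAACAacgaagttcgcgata
CLB1 chrVII:702986-703055 (plus strand): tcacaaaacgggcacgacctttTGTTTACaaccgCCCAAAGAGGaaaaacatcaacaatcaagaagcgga
CLB5 chrXVI:775483-775552 (minus strand): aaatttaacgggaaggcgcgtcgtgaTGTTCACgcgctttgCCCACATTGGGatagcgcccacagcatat
In the stretch before *CLB6*, capitals mark the MCB run ACGCGT as well as the forkhead-type and Mcm1-type runs.
CLB6 chrVII:706812-706921 (minus strand): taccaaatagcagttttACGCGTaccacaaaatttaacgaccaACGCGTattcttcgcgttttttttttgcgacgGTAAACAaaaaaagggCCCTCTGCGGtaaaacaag
In the stretch before *SIC1*, capitals mark the core CCAGC of the Swi5 site, on either strand.
SIC1 chrXII:286630-286729 (plus strand): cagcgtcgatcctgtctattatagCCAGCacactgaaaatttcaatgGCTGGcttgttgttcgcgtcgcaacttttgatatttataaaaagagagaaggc

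In the 1000 bases before each of 5996 protein-coding genes, an Mcm1-type run lay within 20 bases of a forkhead-type run for 3.67%, and for 5 of the 10 genes described here. The 5 were *CLB1*, with 5 bases between the runs, *CLB2*, with 3 such pairs at 5, 8 and 18 bases, *CLB5* and *CLB6*, with 9 bases (8 for an overlapping run of *CLB5*), and *FAR1*, with 9 bases. The spacing rule was set after the matches of these genes had been seen, so the counts are a description. Single motifs were less particular: the Mcm1-type run occurred before 8 of the 10 genes and 77.1% of all genes, the forkhead-type run before 7 and 42.3%, and CCAGC before 7 and 64.4%. ACGCGT, found before 8.51% of all genes, occurred before *CLB6* at 2 places (403 and 377 bases from the start codon) and before *CLB2* once (939 bases). The pheromone response element TGAAACA, found before 23.0% of all genes, occurred before *CLB4*, *CLB5*, *CLB6* and *CKS1*. It was not found in this window before *FAR1*, nor was ACGCGT before *CLB5*, which says only that these letters are not there. Before *CLB4* an Mcm1-type run and a CCAGC core overlap, at 685 to 676 bases from the start codon. The window of 1000 bases can run into a neighbouring gene. For example, the nearest gene lies 275 bases before *CLB4* (*PNP1*), 286 before *CLB3* (*CMR1*), 349 before *CDC28* (*IFA38*), 524 before *FAR1* (*SSY5*) and 566 before *CKS1* (*HSL7*). Matches farther out, among them this overlap of *CLB4* and all matches of *CLB3*, lie beyond the near end of that neighbour.

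**Figure D1:**
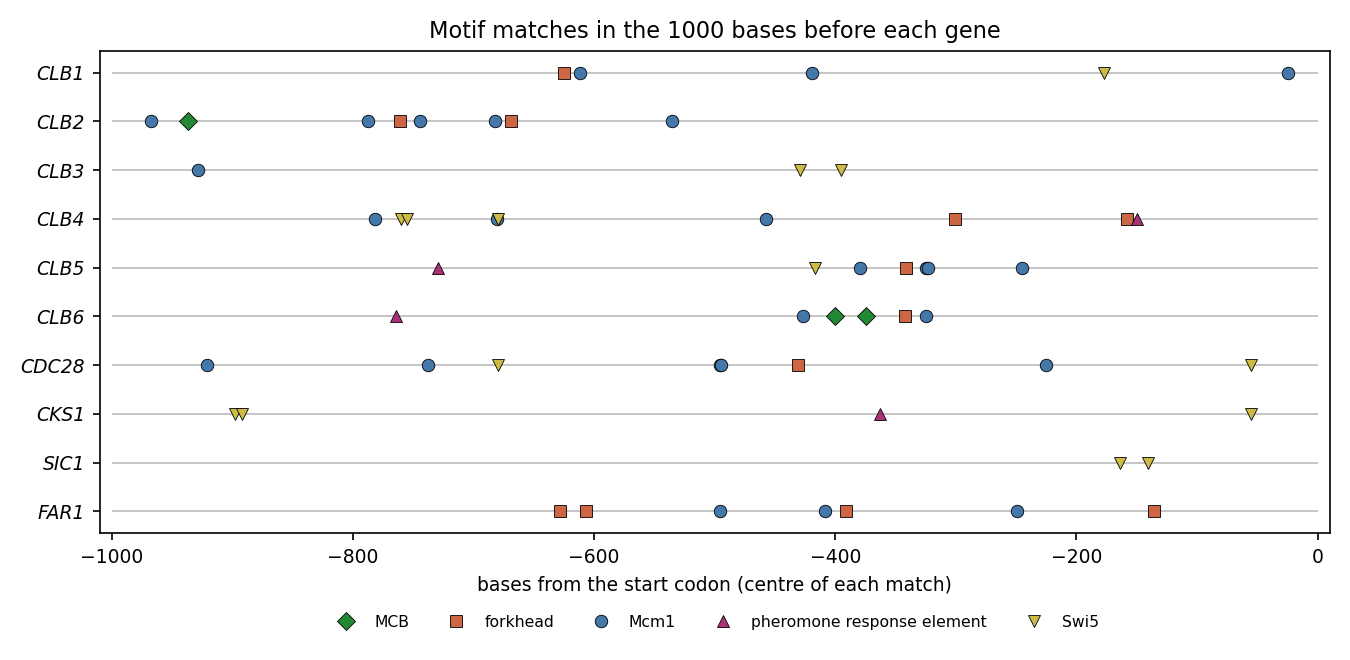
Each line is the DNA before 1 gene, with the distance from the start codon in bases on the horizontal axis. Some lines run into a neighbouring gene. Each symbol is the centre of a match to 1 of 5 motifs on either strand. A forkhead-type match lies beside an Mcm1-type match before CLB1, CLB2, CLB5, CLB6 and FAR1, and the 2 MCB matches of CLB6 begin at 403 and 377 bases.

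All 10 genes passed the filter of at least 0.5 CPM in at least 2 libraries, which kept 5959 genes, and all 10 had a higher mean level in *sis2Δ*. Only *FAR1* was called, that is, passed the quasi-likelihood test of edgeR at 0.05 after Benjamini-Hochberg adjustment over all 5959 genes. Of those genes 6.07% were called in either direction and 2.72% (162 genes) were called higher. Of the calls among all genes, 44.8% were in the higher direction with TMM, and 59.5% were when libraries were scaled by their totals alone. Besides *FAR1*, 5 genes (*CLB1*, *CLB2*, *CLB4*, *CLB6* and *SIC1*) had an unadjusted p under 0.05 with a higher level, a rule that 10.6% of all genes met. For 7 of the 10 the strains did not overlap and *sis2Δ* was the higher, as for 24.5% of all genes. The log2 fold change of *sis2Δ* over wild type (log2FC) was above 0 for 10 of 10, against 49.0% of all genes. Its median was 0.30 over the 10 and -0.0050 over all genes. Because of how the genes were chosen, these shares are descriptions of the group.

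**Figure D2:**
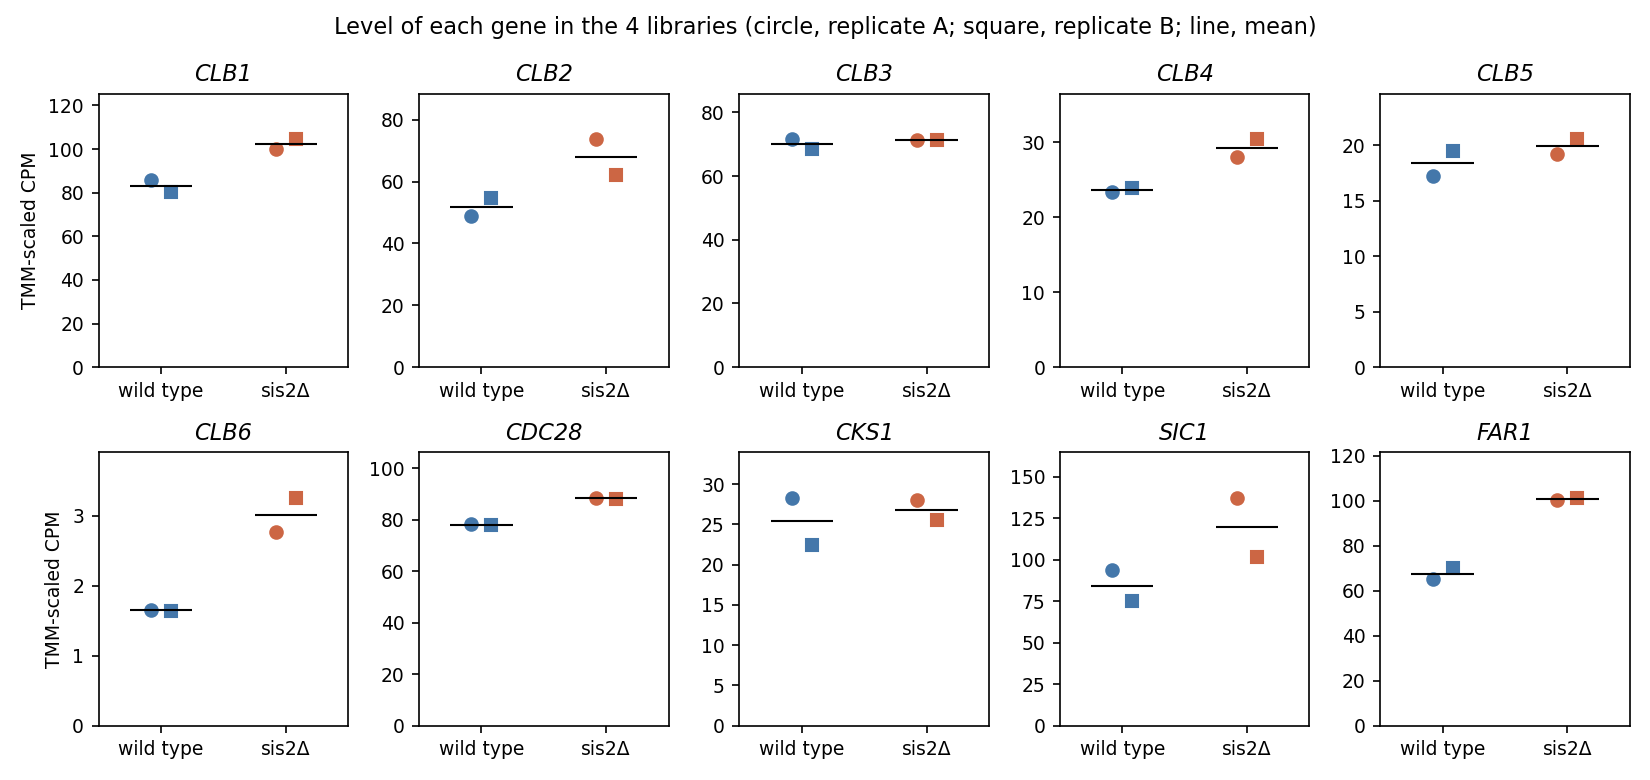
Each panel gives the TMM-scaled CPM of 1 gene (vertical axis, from 0) in the 4 libraries, with a line at the mean of each strain. The strains are separated for all but CLB3, CLB5 and CKS1, and the replicates of SIC1 lie far apart.

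*FAR1* (YJL157C, chromosome X from 123836 to 126328, minus strand) encodes the inhibitor that stops cells before Start when pheromone is present. Its level was 65.1 and 69.9 CPM in wild-type replicates A and B, and 100.2 and 101.4 CPM in *sis2Δ* replicates A and B. The *sis2Δ* replicates nearly coincided and the lower of them was 43.3% above the higher wild-type library. The log2FC was 0.58 (standard error 0.10, adjusted p = 0.0064), a 1.49-fold rise with a 95% interval from 1.28 to 1.74. *FAR1* ranked at place 97 of 5959 by p. It was called in all 8 other ways of processing the counts and with each of the 4 libraries left out, where its log2FC lay between 0.53 and 0.65.

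*SIC1* (YLR079W, chromosome XII from 286820 to 287674, plus strand) encodes the inhibitor of the Clb-bound kinase. It had 94.0 and 74.8 CPM in wild-type replicates A and B, and 137 and 102 CPM in *sis2Δ* replicates A and B. Both strains had their higher value in replicate A, and the lower *sis2Δ* library was 8.05% above the higher wild-type library. The log2FC of 0.50 (standard error 0.15, adjusted p = 0.073) was not called. The value moved with single libraries, from 0.28 without *sis2Δ* replicate A (adjusted p = 0.37) to 0.70 without *sis2Δ* replicate B (adjusted p = 0.0084), and it was also past the threshold without wild-type replicate A (0.67, adjusted p = 0.0023). *SIC1* was called by DESeq2 (adjusted p = 0.0348) and by edgeR with median-ratio size factors (adjusted p = 0.0374) or library totals alone (adjusted p = 0.0386), but not by limma-voom (adjusted p = 0.0764).

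*CLB1* (YGR108W, chromosome VII from 703636 to 705051) and *CLB2* (YPR119W, chromosome XVI from 771653 to 773128), both on the plus strand, encode the cyclins of mitosis. *CLB1* had 85.8 and 80.5 CPM in wild type and 100.04 and 104.5 CPM in *sis2Δ*, replicates A and B in that order. *CLB2* had 48.8 and 54.6 CPM in wild type and 73.7 and 62.0 CPM in *sis2Δ*. Neither gene's strains overlapped, with gaps of 16.6% for *CLB1* and 13.4% for *CLB2* between the nearest libraries. The log2FC was 0.30 (standard error 0.10, adjusted p = 0.115) for *CLB1* and 0.39 (standard error 0.12, adjusted p = 0.082) for *CLB2*, and neither was called. Leaving out *sis2Δ* replicate B brought *CLB2* to 0.51 (adjusted p = 0.0191), past the threshold, and leaving out *sis2Δ* replicate A brought it to 0.28 (adjusted p = 0.316). The share of the summed CPM of the 6 B-type cyclins held by *CLB1* and *CLB2* was 54.2% and 54.3% in wild type, and 58.9% and 57.0% in *sis2Δ*.

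*CLB3* (YDL155W, chromosome IV from 176773 to 178056) and *CLB4* (YLR210W, chromosome XII from 562008 to 563390), both on the plus strand, encode the cyclins that act in replication and on the spindle. *CLB3* had 71.6 and 68.6 CPM in wild-type replicates A and B, and 71.2 CPM in both *sis2Δ* replicates. The *sis2Δ* values lay within the range of the wild type, with a log2FC of 0.022 (standard error 0.10, adjusted p = 0.93) and an interval of the fold from 0.869 to 1.19. *CLB4* was lower in level, at 23.3 and 23.8 CPM in wild type and 28.0 and 30.4 CPM in *sis2Δ*. Its libraries were separated by 17.6%, and its log2FC of 0.31 (standard error 0.12, adjusted p = 0.168) was not called.

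*CLB5* (YPR120C, chromosome XVI from 773875 to 775182) and *CLB6* (YGR109C, chromosome VII from 705359 to 706501), both on the minus strand, encode the S-phase cyclins. *CLB5* had 17.2 and 19.5 CPM in wild type and 19.3 and 20.6 CPM in *sis2Δ*, so that the strains overlapped. Its log2FC was 0.12 (standard error 0.13, adjusted p = 0.642), with an interval of the fold from 0.888 to 1.33. *CLB6* was the least abundant of the 10, with 45 and 31 counts in wild-type replicates A and B against 57 and 80 counts in the *sis2Δ* replicates. These are 1.65 and 1.64 CPM in wild type and 2.77 and 3.26 CPM in *sis2Δ*, and the nearest libraries were 67.7% apart. The log2FC of 0.88 was the largest estimate among the 10 genes. With few counts its standard error was 0.27, the interval of the fold reached from 1.23 to 2.75, and the adjusted p was 0.079, so *CLB6* was not called.

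*CDC28* (YBR160W, chromosome II from 560078 to 560974, plus strand), the kinase itself, had 78.2 and 77.9 CPM in wild type and 88.6 and 88.0 CPM in *sis2Δ*. The replicates lay close together and the strains were separated by 12.5%, yet the log2FC of 0.18 (standard error 0.10, adjusted p = 0.337) was not called, with an interval of the fold from 0.971 to 1.32. *CKS1* (YBR135W, chromosome II from 504854 to 505306, plus strand) had 28.3 and 22.5 CPM in wild type and 28.1 and 25.6 CPM in *sis2Δ*, so that both *sis2Δ* values lay between the wild-type values. Its log2FC was 0.071 (standard error 0.14, adjusted p = 0.809) and changed sign, to -0.058, without wild-type replicate B.

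**Figure D3:**
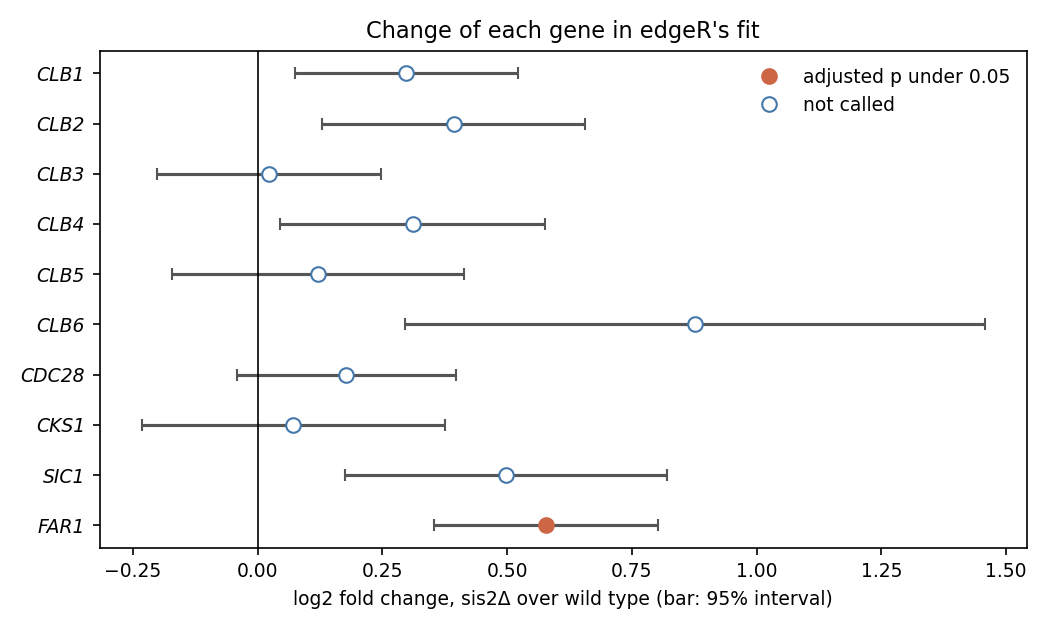
Log2 fold change of each gene in sis2Δ over wild type (horizontal axis), with 95% intervals from edgeR's fit and a filled point where the adjusted p was under 0.05. FAR1 at 0.58 is the only filled point, and CLB6 at 0.88 has the widest interval.

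Per kb of coding sequence, the wild-type levels ran from *SIC1* with 98.7 ± 15.8 CPM per kb (SD, n = 2) and *CDC28* with 87.0 ± 0.202 through *CLB1* with 58.7 ± 2.65, *CKS1* with 56.1 ± 9.10, *CLB3* with 54.6 ± 1.65, *CLB2* with 35.03 ± 2.80, *FAR1* with 27.1 ± 1.36, *CLB4* with 17.0 ± 0.252 and *CLB5* with 14.1 ± 1.25 to *CLB6* with 1.44 ± 0.0076. The order was the same in *sis2Δ*, from *SIC1* with 140 ± 29.6 CPM per kb to *CLB6* with 2.64 ± 0.301. *SIC1* and *CDC28* differed in wild type by less than the SD of *SIC1*, and *CKS1* could not be placed between its neighbours *CLB1* and *CLB3*, whose libraries fell within its range.

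Ratios of counts within a library do not depend on how libraries are scaled. For 2 libraries against 2, the smallest two-sided p of an exact permutation test is 0.33, so no ratio could pass. The smallest value found was 0.67 after Benjamini-Hochberg adjustment over the 6 ratios computed. The *CLB6* to *CLB5* ratio was 0.0959 and 0.084 in wild-type replicates A and B, and 0.144 and 0.158 in the *sis2Δ* replicates, the widest separation of the 6 (log2 difference 0.75, exact p = 0.33). The *CLB3* to *CLB4* ratio moved the other way, from 3.07 and 2.88 to 2.54 and 2.34 (log2 difference -0.285, exact p = 0.33). The counts of *SIC1* and *FAR1* together over those of the 6 B-type cyclins were 0.641 and 0.582 in wild type and 0.805 and 0.695 in *sis2Δ*, also without overlap (log2 difference 0.293, exact p = 0.33). The strains overlapped in the ratios of *CLB1* to *CLB2* (1.76 and 1.47 against 1.36 and 1.69), of *SIC1* to *CLB5* (5.46 and 3.83 against 7.13 and 4.94) and of *FAR1* to the G1 cyclin gene *CLN2* (1.12 and 1.55 against 1.15 and 1.27).

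**Figure D4:**
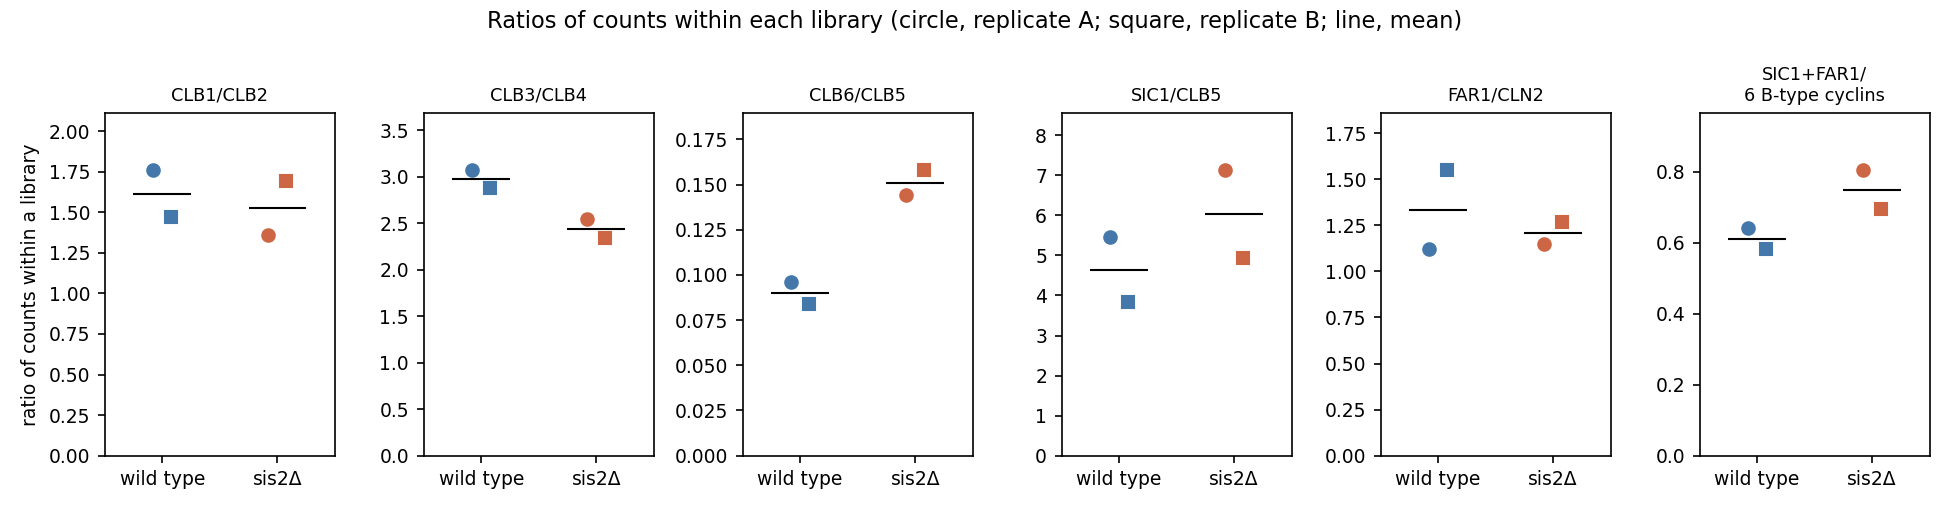
Each panel gives 1 ratio of counts (vertical axis, from 0) in the 4 libraries, with a line at the mean of each strain. The strains are separated for CLB3/CLB4, CLB6/CLB5 and the inhibitors over the B-type cyclins, and overlap for the other ratios.

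*CLB1* and *CLB6* are neighbours on chromosome VII, converging with 307 bases between their coding sequences, and *CLB2* and *CLB5* converge on chromosome XVI with 746 bases between them. The tRNA genes nearest to *CLB1*, *CLB2*, *CLB5* and *CLB6* were not analysed here. None of the other 12 flanking genes was called in edgeR's test. Next to *FAR1*, *CIS3* had a log2FC of 0.14 (adjusted p = 0.589) and *SSY5* of -0.027 (adjusted p = 0.913). Next to *SIC1*, *BOS1* had -0.21 (adjusted p = 0.337) and *EMP46* had 0.094 (adjusted p = 0.655). Coding sequences of the cyclin pairs are 68.5% identical for *CLB1* and *CLB2* over 1370 aligned bases, 64.2% for *CLB3* and *CLB4* and 63.7% for *CLB5* and *CLB6*. The longest identical stretch of any of the 15 cyclin pairs had 17 bases, in *CLB1* and *CLB2*, and none of the 100-base windows of the 10 genes occurs elsewhere in R64.

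The regulators of the 10 genes were compared next. Of the 11 transcription factor genes given here, all had a log2FC above 0, beside 49.0% of all genes, and the median was 0.31. Of the 11, 4 were called higher and 0 lower, beside 2.72% of all genes called higher. The 3 largest calls were *YOX1*, a repressor of genes of the M/G1 boundary (2.87 ± 0.832 to 6.40 ± 0.455 CPM, log2FC 1.13, adjusted p = 0.0125), *MCM1* (log2FC 0.71, adjusted p = 0.0297) and *NDD1*, the coactivator that joins Mcm1 and Fkh2 before the mitotic cyclin genes (log2FC 0.57, adjusted p = 0.0456). *MCM1* had 87.8 and 78.3 CPM in wild type and 168 and 105 CPM in *sis2Δ*, and *NDD1* had 71.0 and 58.1 CPM in wild type and 111 and 80.3 CPM in *sis2Δ*. In both, as in *SIC1* and *CLB2*, *sis2Δ* replicate A held the highest value. The part of that library in the calls of *MCM1* and *NDD1* was not tested.

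Groups of genes that are transcribed with some of the 10 are given with their counts of calls. Beside them stand the 2.72% of all genes that were called higher, and no difference between groups was tested. Of 15 other genes of the *CLB2* cluster, 0 were called in edgeR's test, 4 had an unadjusted p under 0.05, 13 lay above 0 and the median log2FC was 0.14. The smallest p among them belonged to *SWI5*, which encodes an activator of *SIC1* (log2FC 0.34, adjusted p = 0.104), and *BUD4*, a protein of bud site selection (0.33, adjusted p = 0.108). Of the 16 S-phase genes under MBF given here, the group of *CLB5* and *CLB6*, 3 were called higher. They were *RNR1*, the large subunit of ribonucleotide reductase, which rose by 0.64 on the log2 scale (adjusted p = 0.0231), *MCD1*, a cohesin subunit, by 0.53 (adjusted p = 0.0222), and *CDC21*, thymidylate synthase, by 0.43 (adjusted p = 0.0446). Among 8 core histone genes, whose transcripts peak in S phase, 0 were called and 0 had an unadjusted p under 0.05, with a median of -0.0013.

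*FAR1* is also a gene that mating pheromone induces. Of 17 pheromone-induced genes, 10 were called higher and 0 lower, beside 2.72% of all genes called higher. All 17 lay above 0, beside 49.0% of all genes, and the median log2FC was 0.44. The largest calls were *FIG1*, a membrane protein of mating (0.933 ± 0.177 to 2.90 ± 0.708 CPM, log2FC 1.65, adjusted p = 0.0129), *AGA1*, the anchor of a-agglutinin (66.7 ± 6.50 to 174 ± 37.2 CPM, log2FC 1.38, adjusted p = 9.1e-05), and *FUS2*, which acts in cell fusion (7.70 ± 0.710 to 18.7 ± 0.0161 CPM, log2FC 1.29, adjusted p = 0.000255). Markers of the mating type moved alongside, though *STE2* and *BAR1* stand both among them and among the 17 genes above. Of 6 *MATa* markers 3 were called higher (median 0.49). Of 4 *MATα* markers 3 were tested and 2 were called higher. The summed level of the 3 tested was 47.4 and 44.4 CPM in wild type and 79.5 and 80.1 CPM in *sis2Δ*. Most of it was *SAG1*, with 37.6 and 32.4 CPM in wild type and 65.7 and 64.7 CPM in *sis2Δ*. *STE3* was not called in edgeR's test (log2FC 0.30, adjusted p = 0.322). The α-factor genes, which define *MATα* cells, had 10, 13, 51 and 38 counts for *MF(ALPHA)1* and 1, 3, 11 and 7 counts for *MF(ALPHA)2* in wild-type replicates A and B and *sis2Δ* replicates A and B, in that order. The part of these markers in the rise of *FAR1* was not tested. Of 4 genes of meiosis, *IME2* was called lower and the other 3 were not called (summed level 66.6 and 66.2 CPM against 63.4 and 51.1 CPM).

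Genes whose products act on the 10 proteins after transcription are given by list, beside the 6.07% of all genes that were called. At that share, a count of 0 in a short list does not set the list apart from other genes. Of 5 other regulators of Cdc28 (*SWE1*, *MIH1*, *HSL1*, *HSL7* and *CAK1*), 0 were called in edgeR's test, and *HSL1*, a kinase that lowers the Cdc28 inhibitor Swe1, came nearest (log2FC 0.34, adjusted p = 0.095). None of 16 genes of the anaphase-promoting complex, which has mitotic cyclins such as Clb2 destroyed, was called. An unadjusted p under 0.05 was found for 2 of them: *ACM1*, an inhibitor of the complex (log2FC 0.51, adjusted p = 0.080), and *APC11*, a subunit (-0.37, adjusted p = 0.115). None of 5 genes of the SCF ligase, which has Sic1 and Far1 destroyed, was called, and 0 had an unadjusted p under 0.05 (median -0.090). None of 12 genes of mitotic exit was called, and *BUB2* alone had an unadjusted p under 0.05 (log2FC -0.33, adjusted p = 0.200). Among the 3 G1 cyclin genes, *CLN1* (log2FC 0.43, adjusted p = 0.0358) and *CLN2* (0.69, adjusted p = 0.0086) were called higher.

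**Figure D5:**
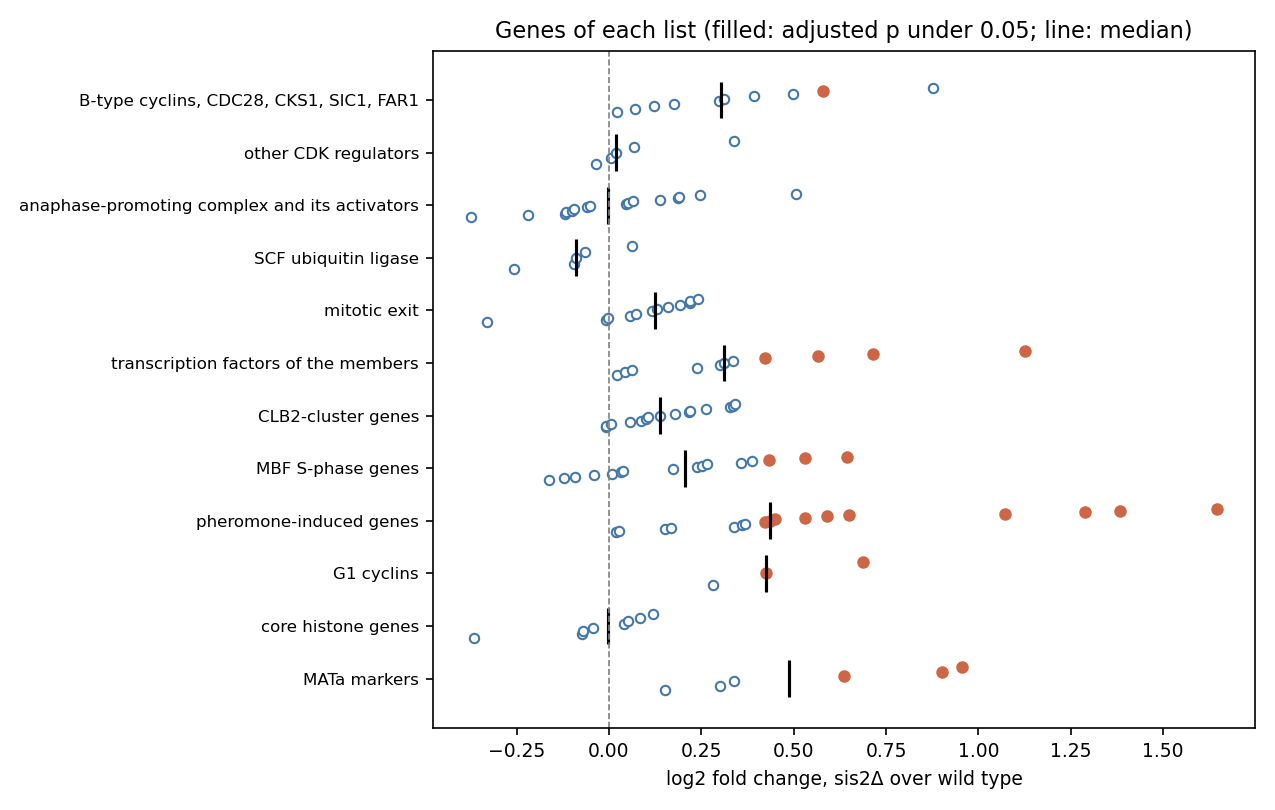
Log2 fold change of each gene in sis2Δ over wild type (horizontal axis), by list, filled where the adjusted p was under 0.05, with a line at the median of each list. Pheromone-induced genes hold 10 filled points, the CLB2 cluster holds 0 and the 10 genes described here hold 1, FAR1. Of all genes 2.72% were called higher, so a count of 0 does not set a short list apart. Some genes stand in more than 1 list.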

How the data were processed

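Stranded polyA libraries of 2 wild-type and 2 *sis2Δ* cultures were made and sequenced by the authors, who, per the methods and the submitters' processing notes, trimmed reads with Cutadapt (3.7), mapped them to R64 with STAR (2.7.8a) and summarized them as reverse stranded with featureCounts (2.0.1). The authors deposited counts per gene without normalization. Annotation, multi-mapping and the counting of pairs are not given in the sources used here. A second deposited file, which holds the fold changes and p-values of the authors' own limma comparison, was not used.

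Counts were compared in edgeR 4.0.16 (R 4.3.3) by the quasi-likelihood test, with TMM scaling and genes of at least 0.5 CPM in at least 2 libraries, and Benjamini-Hochberg adjustment over all genes at 0.05. Intervals (95%) and standard errors came from that test. Each library counted as 1 replicate (n = 2), so p-values rest on the spread between 2 cultures per strain. The test pools the variance of a gene with that of other genes, so its own replicates alone do not set its standard error. Alternatives were limma-voom (limma 3.58.1), DESeq2 1.42.0, 2 other scalings (median-ratio, library totals), the legacy fit, 2 other filters (1 count in all, or 10 counts in each library), a block for the replicate letter and each library left out. The 3 counts taken as the floor are 0.11 to 0.159 CPM and cover counting error only. The fits were tested on simulated data. The genes and lists were chosen with earlier results of these data known. Named were all 10 genes, the nearest gene on each side, and per list at most the 3 largest calls or, without calls, the 2 smallest p. Of 6692 identifiers 6008 were found in RefSeq. The 1 *sis2Δ* label that ends in a Greek letter was read as B. Some genes of the transcription factor, *CLB2*-cluster and S-phase lists, and 1 further list, are not reported here, and the counts given for these lists leave them out.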

Additional observations from a re-analysis of the deposited data

How the results depend on the processing

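*FAR1* was called under every alternative run. Of 120 other values of the 10 genes' log2 fold changes, 110 kept their direction and side of the threshold, 9 passed it anew (6 of *SIC1*, 2 of *CLB2* and 1 of *CLB6*) and 1 reversed, that of *CKS1*, which ran from -0.058 without wild-type replicate B to 0.25 without wild-type replicate A. Of the 10 genes, 1 was called in the result given, 2 with DESeq2, 2 with median-ratio size factors, 2 with library size alone (*SIC1* and *FAR1* each time), and between 1 and 3 with a library left out. With 1 library left in a strain, that library was assumed to vary like the others. The calls among all genes went from 362 to between 190 and 985 with a library left out (190 without *sis2Δ* replicate A, 194 without wild-type replicate B and 985 without *sis2Δ* replicate B). Letters A and B name independent cultures, so they were not taken to pair the libraries. The deviations of same-lettered libraries from their strain's mean correlated at 0.086 across genes. An effect shared by a letter on part of the genes was not tested. With the letter as a replicate block, 788 genes were called and 4 of the 10 (*CLB2*, *CLB6*, *SIC1* and *FAR1*). Depth limits *CLB6* most, with 31 to 80 counts per library.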
